A study of Rattus norvegicus with 12 samples.

Results

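The genes of the constitutive proteasome and of its activators, inhibitor and assembly chaperones were followed across 3 clones of INS1E, a rat insulin-secreting beta-cell line. They were taken as the gene-level array rows that carried a single symbol made of Psma, Psmb, Psmc, Psmd, Psme, Psmf or Psmg and a number. The interferon-inducible catalytic subunits Psmb8, Psmb9 and Psmb10 were left out. For a symbol with several rows the brightest was kept. This gave 40 of the 18166 genes measured. They comprised 6 alpha-ring and 8 beta-ring subunits of the 20S core, 6 ATPases and 13 non-ATPases named as 19S subunits, 3 activators, 1 inhibitor and 3 assembly chaperones. Psma3 and Psme3 stood only on rows shared with other symbols, and Psma8, Psmd10 and Psmg3 had no row of their own, so these 5 were not analysed here.

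The hIAPP clone stably carried human islet amyloid polypeptide, the form that aggregates into amyloid. The rIAPP clone carried the rat form, which does not, and the control clone carried the empty vector pcDNA3. All 3 were cultured at 11.1 mM glucose with 200 microg/mL geneticin for 3 days, and each was measured on 2 arrays, lettered a and b. The question posed by the design is how the amyloid-forming and the non-amyloid peptide each change RNA levels in a beta cell. Each group is a single clone, and an effect of the transgene and a trait of the clone cannot be told apart. The labels do not say if arrays a and b came from separate cultures, and the p-values rest on the spread between such pairs. Values are log2 intensities, on which a difference of 1 is a factor of 2. Differences of this kind describe RNA per amount of total RNA, so fewer cells expressing a gene and less RNA per cell cannot be told apart.

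The proteasome is the main protease of the cytosol and nucleus for proteins marked with ubiquitin. Its 20S core is a barrel of outer alpha rings, which gate the entry, and inner beta rings, which hold the cutting sites. The 19S cap binds ubiquitin chains, removes them and threads the unfolded protein inwards with a ring of ATPases. Other activators bind the same ends of the barrel: PA28, made of Psme1 and Psme2, and PA200, encoded by Psme4. Beta cells fold and export large amounts of hormone, and misfolded chains are returned to the cytosol for degradation by this system. Under interferon signalling, cells replace the 3 catalytic beta subunits by Psmb8, Psmb9 and Psmb10 and add PA28, which together change the peptides offered on MHC class I.

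Arrays of the same clone correlated at 0.9987 to 0.9990 over all genes, and arrays of different clones at 0.9934 to 0.9955. The median SD between the 2 arrays of a clone was 0.0478 in hIAPP, 0.0390 in rIAPP and 0.0406 in control. Of 12 beta-cell markers 9 were measured, and their mean levels lay between the 57.9th and 99.9th percentile of all genes. Of the 9, 1 rose and 4 fell in hIAPP against control, where 10.1% of all genes rose and 8.93% fell, and 1 rose and 2 fell in rIAPP, where 8.70% rose and 7.30% fell. Both insulin genes fell in both clones. Ins1 stood at −0.57 in hIAPP and −0.51 in rIAPP (limma adjusted p = 0.00243 and 0.00565), and Ins2 at −0.74 and −0.64 (adjusted p = 0.0131 and 0.0269). Nkx6-1 and Nkx2-2 fell in hIAPP, at −0.42 and −0.25 (adjusted p = 0.00377 and 0.0101). Slc30a8 rose in hIAPP by 0.24 and Slc2a2 in rIAPP by 0.19 (adjusted p = 0.0157 and 0.0470). Leukocyte markers lay between the 6.3rd and 36.6th percentile, fibroblast and endothelial markers between the 23.6th and 46.0th, and acinar and ductal markers between the 11.5th and 94.5th, with the ductal keratin Krt7 the one bright gene of that list. Of these 3 lists 1 gene was called against control, the leukocyte-list gene Cd68, higher in rIAPP by 0.37 (limma adjusted p = 0.00804). Among 7 measured markers of other islet cells, glucagon (Gcg), which defines alpha cells, was bright in every array and higher in hIAPP than in control by 0.17 (adjusted p = 0.0419). From the same list, Etv1 fell by 0.20 in hIAPP and 0.23 in rIAPP on the log2 scale (adjusted p = 0.0281 and 0.0187). Fev fell by 0.61 in rIAPP (adjusted p = 0.00119) and stood at −0.22 in hIAPP (adjusted p = 0.0616). The part of these markers in the results below was not tested. The probes for rat Iapp read 13.79 and 13.82 in hIAPP, 13.90 and 13.92 in rIAPP, and 13.76 and 13.72 in control. They differed from control by 0.06 in hIAPP and 0.17 in rIAPP (adjusted p = 0.406 and 0.0507). The labels do not say whether these probes read either transgene.

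The 40 genes differed little between the clones. Against control, differences ran from −0.12 to 0.21 in hIAPP and from −0.17 to 0.24 in rIAPP, and between hIAPP and rIAPP from −0.12 to 0.30. In hIAPP minus control 4 genes rose at a limma adjusted p under 0.05 (Psmc2, Psmd7, Psme2 and Psmg4) and 0 fell. Over all genes tested, 10.1% rose and 8.93% fell in that contrast, as did 16.2% and 11.9% of the brighter genes, those with a mean at or above that of the median gene, to which 39 of the 40 belong. In rIAPP minus control 1 gene rose, Psme2, and 0 fell, where calls covered 8.70% of all genes upwards and 7.30% downwards (14.4% and 9.13% of the brighter ones). In hIAPP minus rIAPP 1 gene was called, Psmg4, which was higher, where upward calls covered 6.11% and downward calls 5.56% of all genes (8.91% and 8.62% of the brighter ones). At an unadjusted p under 0.05 the genes numbered 6, 9 and 3 of 40 in the 3 contrasts, against 31.4%, 30.7% and 24.5% of all genes and 42.4%, 41.2% and 33.8% of the brighter ones. Psme2 alone was called higher in both clones, where 4.86% of all genes and 8.29% of the brighter ones were. Both contrasts use the same control arrays.

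Arrays of 2 clones that do not overlap were common among all genes. Both hIAPP arrays lay above both control arrays for 13 of the 40 genes and below them for 6, as for 27.2% and 30.6% of all genes and 39.0% and 31.3% of the brighter ones. Both rIAPP arrays lay above control for 20 and below for 4, against 31.3% and 29.2% of all genes and 47.7% and 26.7% of the brighter ones. The hIAPP arrays lay above those of rIAPP for 5 and below for 15, against 24.2% and 28.7% of all genes and 26.9% and 38.0% of the brighter ones.

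The median difference of the 40 genes was 0.013 in hIAPP minus control, 0.044 in rIAPP minus control and −0.036 in hIAPP minus rIAPP. For all the brighter genes it was 0.016, 0.041 and −0.022. The 95% confidence intervals of all 40 lay between −19.2% and 27.3% relative to control in hIAPP, and between −21.4% and 27.8% in rIAPP. For hIAPP relative to rIAPP they lay between −20.9% and 34.9%. A difference of at least 0.25, a size chosen after the values were seen, was reached by 0, 0 and 1 of the 40 genes in the 3 contrasts, and by 14.7%, 12.7% and 10.1% of all genes.

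**Figure D1:**
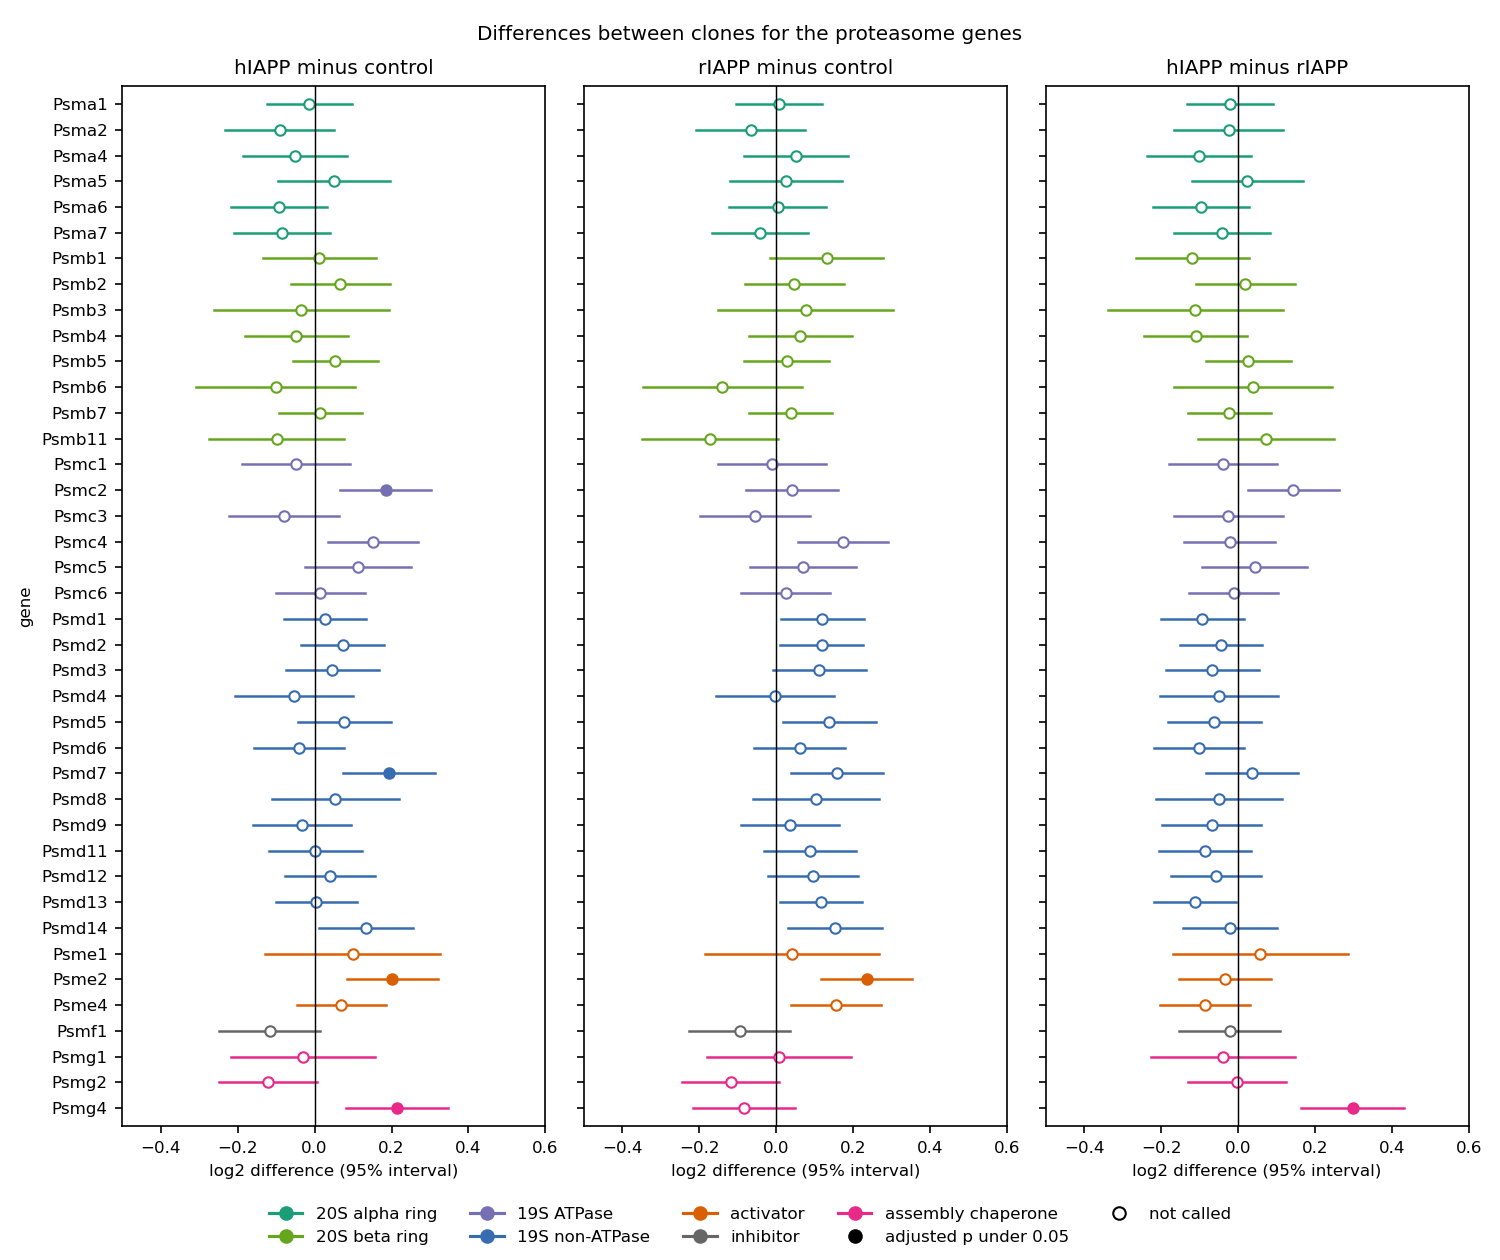
Log2 difference of each of the 40 genes in each of the 3 contrasts, grouped by place in the proteasome, with 95% confidence intervals from limma. Filled points passed an adjusted p under 0.05: 4 genes in hIAPP minus control, 1 in rIAPP minus control and 1 in hIAPP minus rIAPP.

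The alpha-ring subunits, whose tails form the gate of the core, showed no called difference. In hIAPP minus control 5 of the 6 were negative and 1 was positive, from −0.09 to 0.05 with a median of −0.067. In rIAPP minus control 2 were negative and 4 positive, with a median of 0.006. Of the 9083 brighter genes 4130 were negative in hIAPP minus control and 3456 in rIAPP minus control. The lowest in hIAPP was Psma6, at 11.16 and 11.05 in hIAPP and 11.20 and 11.21 in rIAPP, against 11.21 and 11.19 in control (difference −0.09 in hIAPP, limma adjusted p = 0.295). Its hIAPP arrays lay below the control arrays without overlap, as did those of Psma7, while for the other 4 the arrays overlapped. The hIAPP arrays lay below control in this way for 30.6% of all genes and 31.3% of the brighter ones. All 6 intervals lay between −14.9% and 14.5% relative to control in hIAPP and between −13.5% and 13.8% in rIAPP.

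None of the 8 beta-ring genes was called in any contrast. Psmb5, the chymotrypsin-like subunit, read 12.43 and 12.39 in hIAPP and 12.37 and 12.40 in rIAPP, against 12.36 and 12.35 in control. Both clones lay above control without overlap, but the differences were 0.05 in hIAPP and 0.03 in rIAPP (limma adjusted p = 0.491 and 0.748). Psmb7, the trypsin-like subunit, read 12.39 and 12.41 in hIAPP and 12.41 and 12.43 in rIAPP, against 12.39 and 12.38 in control, differences of 0.02 and 0.04 (adjusted p = 0.858 and 0.636). Psmb6, the caspase-like subunit, read 12.27 and 12.26 in hIAPP and 12.27 and 12.18 in rIAPP, against 12.50 and 12.23 in control. Control array a was the highest and control array b lay among the others, with an SD of 0.195 in control, and the differences were −0.10 and −0.14 (adjusted p = 0.493 and 0.333). A second row with the symbol Psmb6 read 11.75 and 11.74 in hIAPP and 11.71 and 11.73 in rIAPP, against 12.07 and 11.82 in control (differences −0.20 and −0.23, adjusted p = 0.137 and 0.0990). On that row both clones lay below both control arrays, and control array a was again the highest. At exon level all 8 Psmb6 probe sets were lower in hIAPP and in rIAPP than in control.

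Among the structural beta subunits Psmb1 had the largest difference in rIAPP. It read 12.15 and 12.01 in hIAPP and 12.19 and 12.20 in rIAPP, against 12.02 and 12.11 in control. The rIAPP arrays lay above all the others (rIAPP minus control 0.13, adjusted p = 0.206; hIAPP minus rIAPP −0.12, adjusted p = 0.301). Psmb2, Psmb3 and Psmb4 differed from control by −0.05 to 0.08 in the 2 clones. Psmb11, the thymus-specific subunit of cortical epithelium, was the one dim gene of the 40. Its mean of 6.44 lay under the lower quartile of every array (6.59 to 6.64). It read 6.46 and 6.41 in hIAPP and 6.37 and 6.35 in rIAPP, against 6.65 and 6.42 in control, and was not called (rIAPP minus control −0.17, adjusted p = 0.172). Without control array b it was called lower in rIAPP.

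Of the 3 inducible subunits that can take the catalytic places, Psmb8 and Psmb9 rose in both clones. Psmb8, which replaces Psmb5, read 10.03 and 9.96 in hIAPP and 9.60 and 9.64 in rIAPP, against 8.86 and 8.75 in control (differences 1.19 and 0.82). Psmb9, which replaces Psmb6, read 10.79 and 10.80 in hIAPP and 10.66 and 10.60 in rIAPP, against 9.93 and 9.92 in control (differences 0.87 and 0.71). The limma adjusted p were 1.86e-05 and 0.000139 for Psmb8 and 3.18e-05 and 0.000113 for Psmb9, and every exon-level probe set, 7 for Psmb8 and 8 for Psmb9, was higher. Psmb10, which replaces Psmb7, differed by 0.08 and −0.09 (limma adjusted p = 0.280 and 0.241). Set directly against rIAPP, Psmb8 was 0.38 higher in hIAPP (limma adjusted p = 0.00651, and up to 0.232 under the alternative settings). In that contrast Psmb9 and Psmb10 were each 0.17 higher and were not called (adjusted p = 0.0657 and 0.0560). In hIAPP the interval of Psmb8 ran from 1.06 to 1.33 and that of Psmb5 from −0.06 to 0.16. In rIAPP that of Psmb8 ran from 0.68 to 0.95 and that of Psmb5 from −0.08 to 0.14.

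**Figure D2:**
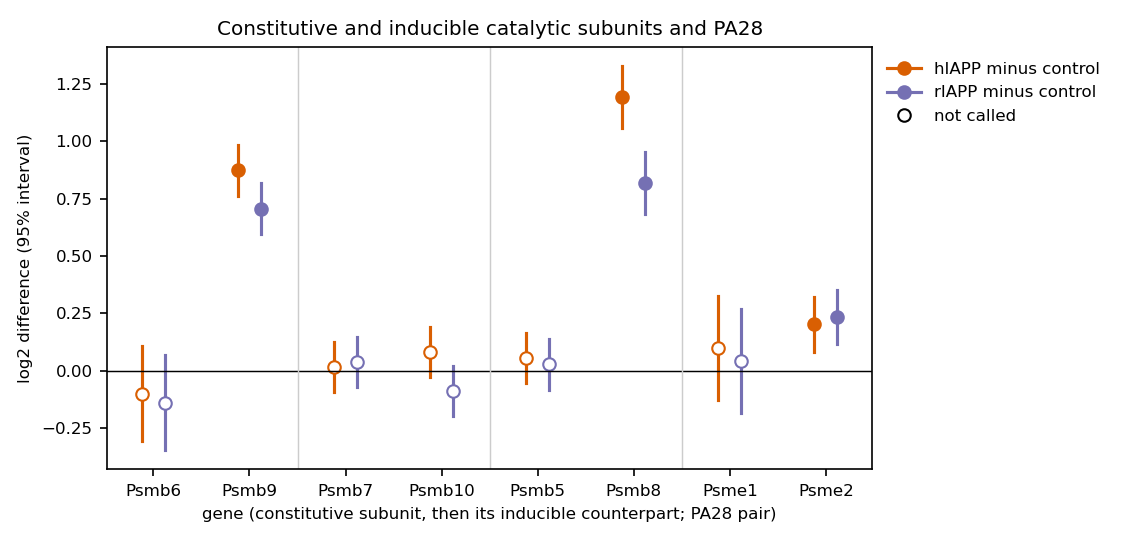
Log2 difference from control, with 95% confidence intervals from limma, with hIAPP left of rIAPP for each gene. The constitutive catalytic subunits Psmb5, Psmb6 and Psmb7 stand beside their inducible counterparts Psmb8, Psmb9 and Psmb10, followed by Psme1 and Psme2. Open points were not called. Psmb8 and Psmb9 lie far above 0 in both clones, while Psmb5, Psmb6, Psmb7 and Psmb10 stay near 0. Psme2 lies above 0 by 0.20 in hIAPP and 0.24 in rIAPP.

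Of the 6 ATPases, which form the motor ring of the 19S cap, Psmc2 was called. It read 12.26 and 12.21 in hIAPP and 12.10 and 12.09 in rIAPP, against 12.09 and 12.01 in control. The hIAPP arrays lay above the other 4, and Psmc2 rose in hIAPP by 0.18 (SE 0.0508, 13.7%, limma adjusted p = 0.0427). In rIAPP minus control the difference was 0.04 (adjusted p = 0.641), and in hIAPP minus rIAPP it was 0.14 (adjusted p = 0.128). The call ended when any 1 of the 6 arrays was left out (adjusted p = 0.0746 to 0.191). Psmc4 read 11.66 and 11.70 in hIAPP and 11.74 and 11.67 in rIAPP, against 11.52 and 11.53 in control. Both clones lay above control without overlap, by 0.15 and 0.17, and neither difference was called (adjusted p = 0.0791 and 0.0568). All 6 of its exon-level probe sets were higher in rIAPP and 5 of 6 in hIAPP. The other 4 ATPases lay between −0.08 and 0.11 of control in hIAPP, and between −0.06 and 0.07 in rIAPP.

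Psmd7, a non-ATPase of the lid that pairs with the deubiquitinase Psmd14, rose in hIAPP. It read 11.55 and 11.50 in hIAPP and 11.49 and 11.49 in rIAPP, against 11.29 and 11.37 in control. Every array of both clones lay above both control arrays. The difference was 0.19 in hIAPP (SE 0.0510, 14.4%, limma adjusted p = 0.0365) and 0.16 in rIAPP (adjusted p = 0.0806), and hIAPP differed from rIAPP by 0.04 (adjusted p = 0.722). All 9 of its exon-level probe sets were higher in each clone than in control. The hIAPP call ended when any 1 of the 6 arrays was left out (adjusted p = 0.0627 to 0.189). Psmd14 itself read 11.59 and 11.55 in hIAPP and 11.56 and 11.62 in rIAPP, against 11.40 and 11.47 in control. It also stood above control without overlap, by 0.13 and 0.15, and was not called (adjusted p = 0.129 and 0.0934). Its probe sets were higher in 8 of 10 cases in hIAPP and 10 of 10 in rIAPP.

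The non-ATPases showed small differences in rIAPP, nearly all positive, that did not pass the test. In rIAPP minus control 12 of the 13 were positive, with a median of 0.112 and a range from −0.004 to 0.157. Of the 9083 brighter genes 5627 were positive, with a median of 0.041. In 11 of the 13 both rIAPP arrays lay above both control arrays, as they did for 31.3% of all genes and 47.7% of the brighter ones. An unadjusted p under 0.05 was reached by 6 of the 13, against 30.7% of all genes and 41.2% of the brighter ones, and 0 passed the adjusted threshold. Psmd1 and Psmd2, the large scaffold subunits of the base, were 0.12 higher in rIAPP than in control on this scale (limma adjusted p = 0.127 and 0.130). Psmd13, a lid subunit, read 11.57 and 11.56 in hIAPP and 11.68 and 11.68 in rIAPP, against 11.55 and 11.57 in control. Its rIAPP arrays stood apart from the other 4, at 0.12 over control (adjusted p = 0.132). Psmd5, which is an assembly chaperone of the base and not a part of the finished cap, showed 0.14 (adjusted p = 0.119). With an intensity trend in limma's prior, 9 of the 40 genes were called in rIAPP, where 22% of all genes were, and Psmd1, Psmd2, Psmd3, Psmd7, Psmd13 and Psmd14 were among them.

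In hIAPP minus control the same 13 genes had a median of 0.040, with 10 positive and 3 negative, where 4953 of the 9083 brighter genes were positive. Set directly against rIAPP, 5264 of the 9083 brighter genes were lower in hIAPP, with a median of −0.022. Of the 13 genes 12 were lower, with a median of −0.061. In 9 both hIAPP arrays lay below both rIAPP arrays, against 28.7% of all genes and 38.0% of the brighter ones. None was called in hIAPP minus rIAPP, and their intervals lay between −14.1% and 11.4%. This contrast shares its rIAPP arrays with rIAPP minus control, so its counts are not independent of those given above. Psmd4, a ubiquitin receptor of the cap, read 10.05 and 10.07 in hIAPP and 10.19 and 10.03 in rIAPP, against 10.15 and 10.07 in control. Its rIAPP and control arrays overlapped. Psmd9, the other base chaperone in the set, differed from control by −0.03 in hIAPP and 0.03 in rIAPP.

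Psme2, the beta subunit of the PA28 activator, was the gene of the 40 called in both clones. It read 12.51 and 12.42 in hIAPP and 12.50 and 12.50 in rIAPP, against 12.27 and 12.26 in control. All 4 arrays of the IAPP clones lay above both control arrays. It rose by 0.20 in hIAPP (SE 0.0507, limma adjusted p = 0.0309) and by 0.24 in rIAPP (17.7%, adjusted p = 0.0201). The clones differed from each other by −0.03 (adjusted p = 0.743, interval −0.15 to 0.08). In hIAPP the call remained without hIAPP array b and ended without any 1 of the other 5 arrays (adjusted p up to 0.122). In rIAPP it remained without either hIAPP array and ended without rIAPP array a or b or control array a or b (adjusted p = 0.0956, 0.108, 0.0883 and 0.0874). All 4 exon-level probe sets were higher in rIAPP and 3 of 4 in hIAPP, where the dimmest one was lower by 0.37.

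Psme1, the alpha subunit that assembles with Psme2, read 8.83 and 8.89 in hIAPP and 8.81 and 8.80 in rIAPP, against 8.92 and 8.60 in control. The control arrays lay on either side of the others, with the largest SD of any group among the 40 genes, 0.229. The differences of 0.10 and 0.04 were not called (limma adjusted p = 0.545 and 0.822), and their intervals, −0.13 to 0.33 and −0.19 to 0.27, hold the value seen for Psme2. Psme4, the single-chain activator PA200, read 12.46 and 12.39 in hIAPP and 12.49 and 12.52 in rIAPP, against 12.37 and 12.34 in control. Both clones lay above control, by 0.07 and 0.15 (adjusted p = 0.397 and 0.0787). Of its 45 exon-level probe sets 34 were higher in hIAPP and 40 in rIAPP. Psmf1, the inhibitor PI31, read 12.24 and 12.32 in hIAPP and 12.28 and 12.32 in rIAPP, against 12.35 and 12.44 in control. Both clones lay below control without overlap, at −0.12 and −0.09 (adjusted p = 0.208 and 0.304).

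Of the 3 assembly chaperones, which help build the alpha ring, Psmg4 was called. Psmg4, which works as a dimer with Psmg3, read 9.39 and 9.44 in hIAPP and 9.16 and 9.07 in rIAPP, against 9.16 and 9.24 in control. The hIAPP arrays stood above the other 4, and the rIAPP and control arrays overlapped. Psmg4 rose in hIAPP by 0.21 over control (SE 0.0571, limma adjusted p = 0.0381) and was 0.30 higher than in rIAPP (23.0%, adjusted p = 0.0155), while rIAPP minus control was −0.08 (adjusted p = 0.369). The first call ended without any 1 of the 6 arrays (adjusted p = 0.0528 to 0.192). The second ended without hIAPP array a or b or rIAPP array b (adjusted p = 0.0510, 0.0805 and 0.111). All 5 exon-level probe sets were higher in hIAPP than in control and than in rIAPP. Psmg2, which pairs with Psmg1 in another chaperone dimer, read 9.70 and 9.60 in hIAPP and 9.63 and 9.68 in rIAPP, against 9.76 and 9.78 in control. Both clones lay below control, at −0.12 each, and were not called (adjusted p = 0.176 and 0.187). Its partner Psmg1 differed by −0.03 and 0.01.

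**Figure D3:**
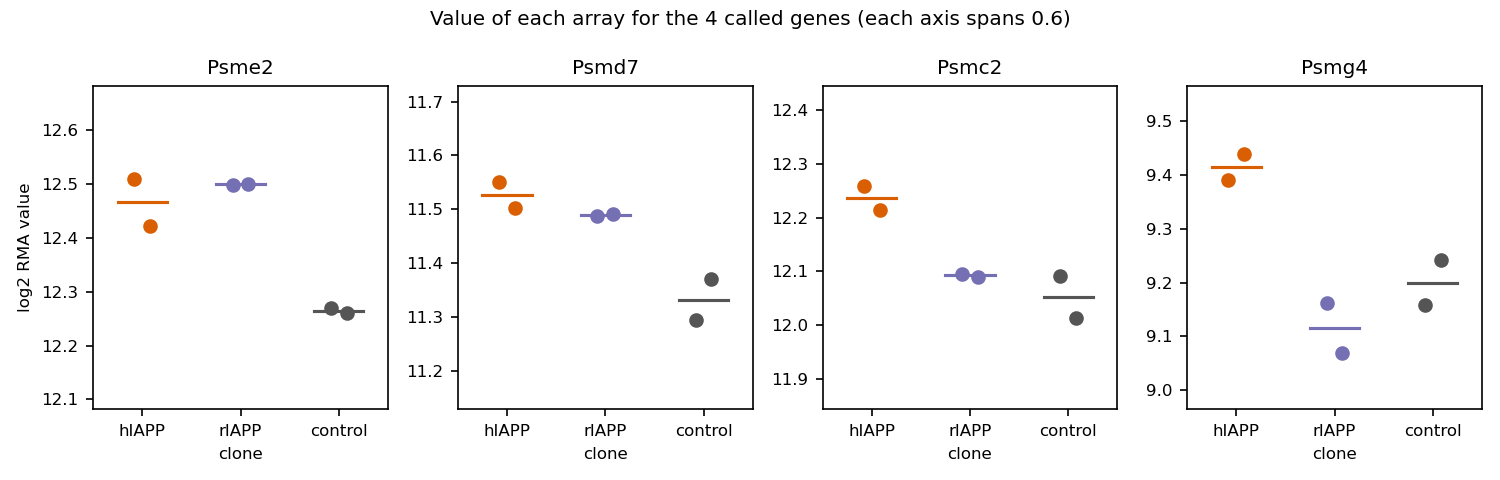
Log2 intensity on each of the 6 arrays for Psmc2, Psmd7, Psme2 and Psmg4, with hIAPP left of rIAPP and control and a bar at each clone's mean. In all 4 genes both hIAPP arrays lie above both control arrays. The rIAPP arrays lie with hIAPP for Psmd7 and Psme2, near control for Psmc2, and overlap control for Psmg4.

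The promoters of these 4 genes are shown because each passed the test in at least 1 contrast. Each window runs from 250 bases before to 50 bases after the gene's start in the RefSeq annotation of rat assembly GRCr8, 5′ to 3′ on the gene's strand. Positions are counted from 1 at the 5′ end of the window. Psme2 lies at chr15:33052702-33053001, Psmd7 at chr19:52411267-52411566, Psmc2 at chr4:14162341-14162640 and Psmg4 at chr17:30923324-30923623, all on the minus strand. Capitals mark matches to CCAAT, to TGACNNNGC, the core of the antioxidant response element, or to GAAA repeated after 2 free bases, a core of the interferon-stimulated response element, each on either strand. The last of these was chosen after the values were seen.
Psme2: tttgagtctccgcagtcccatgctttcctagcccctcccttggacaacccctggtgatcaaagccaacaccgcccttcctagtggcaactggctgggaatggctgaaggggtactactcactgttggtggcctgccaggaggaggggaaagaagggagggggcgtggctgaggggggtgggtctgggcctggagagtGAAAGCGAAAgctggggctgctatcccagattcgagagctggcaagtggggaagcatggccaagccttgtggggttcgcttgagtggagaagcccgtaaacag
Psmd7: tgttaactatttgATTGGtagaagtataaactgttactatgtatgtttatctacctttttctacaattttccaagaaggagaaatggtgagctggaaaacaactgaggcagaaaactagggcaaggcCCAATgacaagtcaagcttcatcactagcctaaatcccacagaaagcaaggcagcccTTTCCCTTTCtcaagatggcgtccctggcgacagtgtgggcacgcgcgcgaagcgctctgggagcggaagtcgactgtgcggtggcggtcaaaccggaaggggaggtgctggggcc
Psmc2: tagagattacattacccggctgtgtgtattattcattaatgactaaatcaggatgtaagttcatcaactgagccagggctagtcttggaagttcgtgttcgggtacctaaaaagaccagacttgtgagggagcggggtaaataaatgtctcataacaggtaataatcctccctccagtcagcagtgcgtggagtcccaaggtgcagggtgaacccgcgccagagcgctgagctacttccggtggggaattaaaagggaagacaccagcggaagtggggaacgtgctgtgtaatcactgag
Psmg4: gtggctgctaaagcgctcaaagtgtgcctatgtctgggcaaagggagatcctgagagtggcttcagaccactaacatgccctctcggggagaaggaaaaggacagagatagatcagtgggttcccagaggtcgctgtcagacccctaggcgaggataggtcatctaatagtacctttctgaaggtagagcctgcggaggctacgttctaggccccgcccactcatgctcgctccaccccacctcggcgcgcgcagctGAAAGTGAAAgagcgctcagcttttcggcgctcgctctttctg
In Psme2 the capitals at positions 198 to 207 are the interferon-type letters GAAAGCGAAA, and in Psmg4 those at 258 to 267 are GAAAGTGAAA. In Psmd7 the same motif lies on the other strand at 185 to 194, and CCAAT is present at 14 to 18 on the other strand and at 128 to 132. The Psmc2 window holds no match to any of the 3 motifs.

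A promoter was found for 35 of the 40 genes. The interferon-type motif was present in 5 of these 35 (Psma4, Psmb3, Psmd7, Psme2 and Psmg4) and in 3.92% of all 33469 promoters of the same length. Psma4 and Psmb3 were not called in any contrast. Outside the 40 genes, Psmb8 held a match at positions 247 to 256 on the other strand, and Psmb9, which rose as well, held none. TGACNNNGC was present in 7 of the 35 (Psmb2, Psmb5, Psmb6, Psmd1, Psmd3, Psmd9 and Psme4) and in 12.1% of all promoters. CCAAT was present in 15 of the 35 and in 37.5% of all promoters. These are matches of letters and were not tested as binding sites.

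The 4 called genes differed in what the genes beside them on the chromosome did. For each gene the median difference was taken over the 51 nearest brighter genes in the GRCr8 gene order, the gene itself among them where it was one. Around Psmc2 on chromosome 4 that median was 0.35 in hIAPP minus control and 0.12 in rIAPP minus control. Around Psmg4 on chromosome 17 it was 0.26 in hIAPP minus control, −0.03 in rIAPP minus control and 0.32 in hIAPP minus rIAPP. In the contrasts in which they were called, both genes thus differed no more than the genes beside them. Psmg4 stood at −0.08 in rIAPP minus control, further from 0 than its neighbours. Around Psme2 on chromosome 15 it was 0.07 and 0.09 in the 2 clones against control, and around Psmd7 on chromosome 19 it was 0.03 and 0.08. Centred on their neighbours, Psmc2 was −0.18 in hIAPP minus control (limma adjusted p = 0.0452), called lower, and Psmg4 was −0.06 (adjusted p = 0.488). Psmd7 stood at 0.15 in hIAPP (adjusted p = 0.0735), and Psme2 at 0.14 in hIAPP and 0.15 in rIAPP (adjusted p = 0.114 and 0.0889). The part of chromosomal position in these differences was not tested. Around Psma2, also on chromosome 17, the neighbour median was −0.14 in hIAPP minus control, beside a difference of −0.09 for the gene (adjusted p = 0.362). Around Psmg2 on chromosome 18 it was −0.13 in rIAPP minus control, beside −0.12 for the gene. In hIAPP minus control it was −0.01, beside the same −0.12, and in hIAPP minus rIAPP it was 0.14, with Psmg2 at −0.002.

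**Figure D4:**
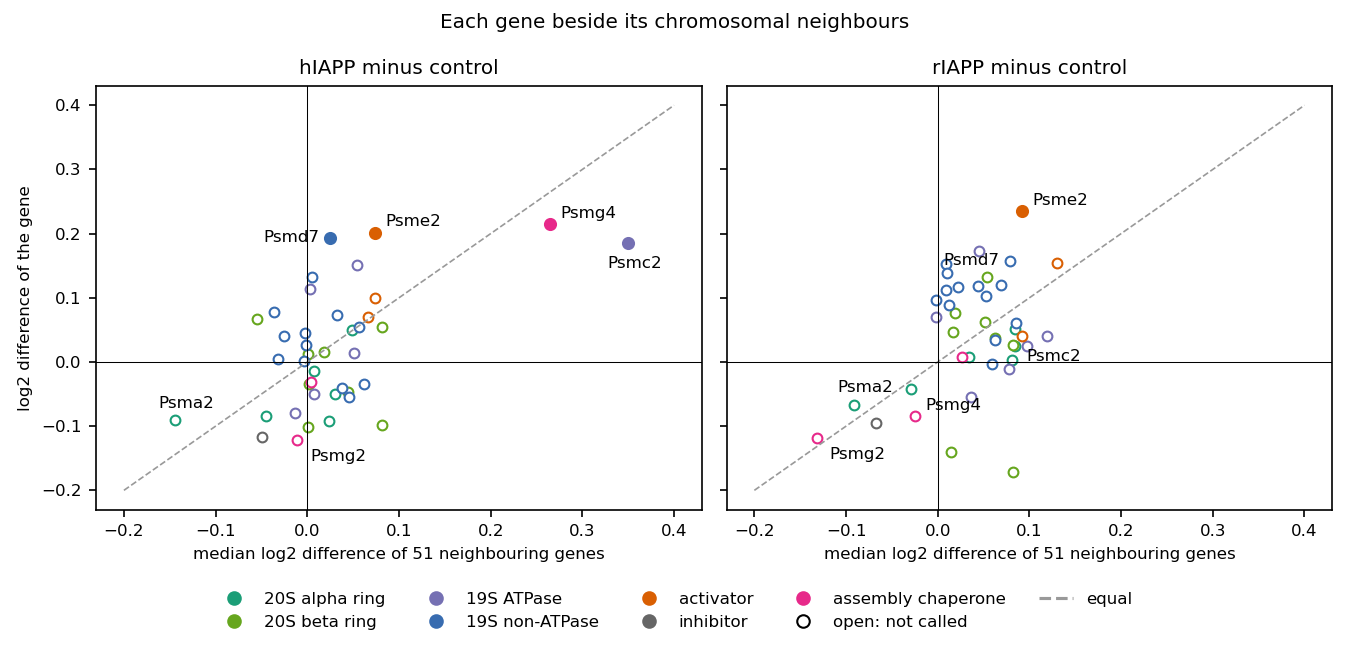
Log2 difference of each of the 40 genes (vertical axis) beside the median log2 difference of the 51 nearest genes at or above the median level (horizontal axis), in hIAPP minus control and rIAPP minus control. Filled points were called, and the dashed line marks equal values. Psmc2 and Psmg4 lie at or below the line at the far right in hIAPP, at 0.35 and 0.26, while Psmd7 and Psme2 lie above it.

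The exon-level values come from the same arrays and are no further replicates. They describe how the probe sets of a gene moved. A gene picked for a higher gene-level value can be foreseen to have mostly higher probe sets, so the counts add no support to a call. In hIAPP minus control 13 of 14 probe sets of Psmc2, 9 of 9 of Psmd7 and 5 of 5 of Psmg4 were higher. For Psmb5 the count was 2 of 4 and for Psma1 3 of 11, with differences on both sides of 0. In rIAPP minus control Psmd1 had 20 of 23 probe sets higher and Psmd13 had 12 of 14. Against rIAPP, all 6 probe sets of Psmb1 were lower in hIAPP, by 0.02 to 0.27. When genes were summarised by the median of their exon-level probe sets, 0 of the 40 genes were called in each contrast, where 7.75%, 5.52% and 3.08% of all genes were.

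**Figure D5:**
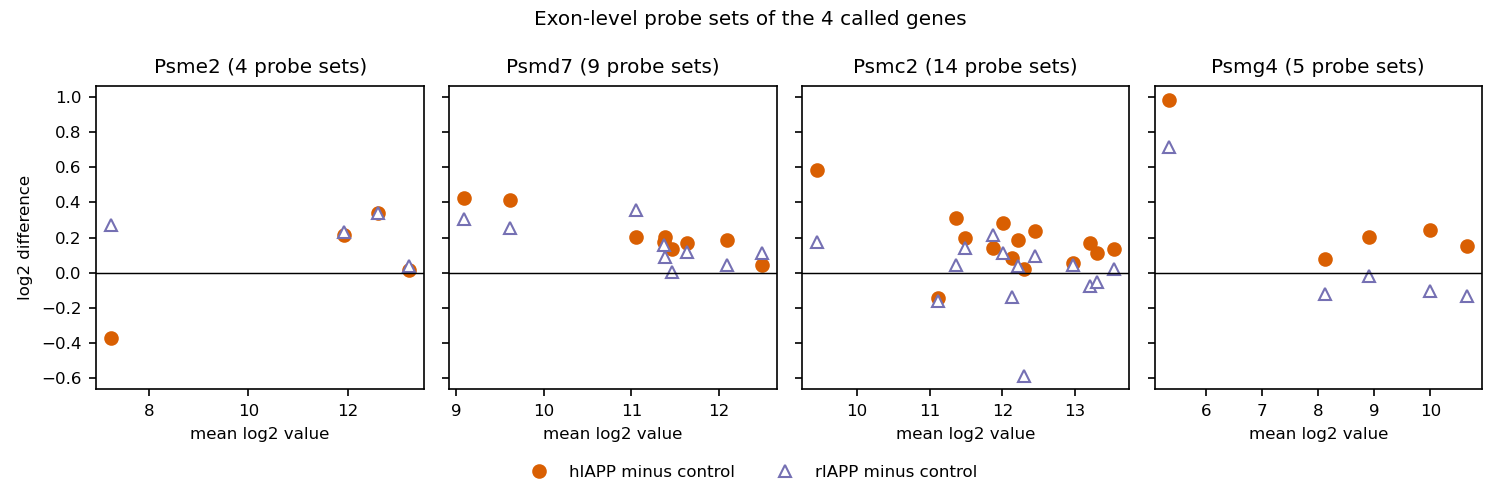
Log2 difference of single exon-level probe sets against their mean log2 level, for Psmc2, Psmd7, Psme2 and Psmg4, in hIAPP minus control and rIAPP minus control. All 9 probe sets of Psmd7 lie above 0 in both contrasts. For Psme2 the dimmest probe set lies at −0.37 in hIAPP minus control, apart from the other 3.

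Factors that work with the proteasome but carry other names were measured for 18 of 22 listed. Against control 1 rose and 2 fell in hIAPP, and 1 rose and 1 fell in rIAPP, shares near those over all genes (10.1% and 8.93% in hIAPP, 8.70% and 7.30% in rIAPP). The medians of 0.044 and 0.052 stood beside 0.016 and 0.041 for the brighter genes. Sem1, the small lid subunit that helps join the lid together, read 9.91 and 9.89 in hIAPP and 9.73 and 9.87 in rIAPP, against 9.51 and 9.59 in control. It rose by 0.35 in hIAPP and 0.25 in rIAPP (limma adjusted p = 0.00694 and 0.0338), with no overlap between the IAPP clones and control. Around it on chromosome 4 the neighbour median was 0.14 in hIAPP and 0.10 in rIAPP. The hIAPP call ended without control array a (adjusted p = 0.0505). The rIAPP call ended without any array other than rIAPP array a (adjusted p up to 0.187), and after centring on neighbours (0.16, adjusted p = 0.0985). With exon-level medians Sem1 stayed called, at 0.50 and 0.41.

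Uchl5, a deubiquitinase docked on the cap, read 10.31 and 10.24 in hIAPP and 10.60 and 10.60 in rIAPP, against 10.48 and 10.50 in control. The hIAPP arrays were the lowest, and it fell by 0.21 against control and was 0.32 lower than in rIAPP on the log2 scale (limma adjusted p = 0.0209 and 0.00605). The call against control ended without hIAPP array b or either control array (adjusted p = 0.0834, 0.0866 and 0.0928), while the one against rIAPP remained without each array in turn. Pomp, the chaperone that completes the core, read 11.92 and 11.95 in hIAPP and 12.05 and 12.08 in rIAPP, against 12.10 and 12.10 in control. It fell in hIAPP by 0.17 on the log2 scale (adjusted p = 0.0448), and the call ended without any 1 array (adjusted p = 0.0778 to 0.164). Txnl1, a thioredoxin-like protein bound to the cap, read 11.99 and 11.91 in hIAPP and 11.73 and 11.74 in rIAPP, against 11.94 and 11.97 in control. It was lowest in rIAPP, where it fell by 0.22 on the log2 scale against control (adjusted p = 0.0239), and it was 0.21 higher in hIAPP than in rIAPP (adjusted p = 0.0337). Its neighbours on chromosome 18 had medians of −0.18 and 0.20 in those contrasts. The call against control ended without either rIAPP or either control array (adjusted p = 0.0887 to 0.114), and that against rIAPP without any 1 array. Centred on its neighbours it stood at −0.03 and 0.02 in those contrasts (adjusted p = 0.660 and 0.869). With exon-level medians the calls of Uchl5, Pomp and Txnl1 ended, at −0.18 for Uchl5 in hIAPP minus control and −0.30 against rIAPP, −0.27 for Pomp, and −0.32 and 0.32 for Txnl1 (adjusted p = 0.0753 to 0.356).

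Nfe2l1, the transcription factor that raises proteasome genes when the proteasome is inhibited, differed by −0.07 in hIAPP and 0.04 in rIAPP (limma adjusted p = 0.410 and 0.681). Vcp, the ATPase that extracts ubiquitin-marked proteins from membranes and complexes, differed by 0.10 and 0.08 (adjusted p = 0.198 and 0.295). Of 20 listed genes that supply or recycle ubiquitin 14 were measured, with medians of −0.004 in hIAPP and 0.018 in rIAPP. In each clone 1 of them rose and 0 fell. Over all genes 10.1% rose and 8.93% fell in hIAPP, and 8.70% rose and 7.30% fell in rIAPP. The gene that rose was Otub2, a deubiquitinase, by 0.23 in hIAPP and 0.28 in rIAPP (adjusted p = 0.0231 and 0.0124). With exon-level medians its differences were 0.12 and 0.07 and were not called (adjusted p = 0.420 and 0.691). Its call in hIAPP ended without hIAPP array a or either control array (adjusted p up to 0.102), and that in rIAPP without either rIAPP or either control array (adjusted p up to 0.0889).

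Of 9 listed interferon-inducible antigen-processing genes 8 were measured, and 5 rose in hIAPP and 4 in rIAPP against control, with 0 falling. Over all genes 10.1% rose and 8.93% fell in hIAPP, and 8.70% rose and 7.30% fell in rIAPP. Beside Psmb8 and Psmb9 the listed genes that rose in both clones were the peptide transporters Tap1 (0.87 in hIAPP and 0.78 in rIAPP) and Tap2 (0.78 and 0.54). In hIAPP the MHC class I light chain B2m also rose (0.26, limma adjusted p = 0.00937), a call that ended without control array b (adjusted p = 0.0600) and with exon-level medians (0.17, adjusted p = 0.316). With those medians Tap1 stayed called, at 0.60 in hIAPP and 0.47 in rIAPP. In rIAPP B2m differed from control by 0.12 and was not called (limma adjusted p = 0.141). Tapbp differed by 0.006 in hIAPP and 0.09 in rIAPP and was not called (limma adjusted p = 0.964 and 0.388). Irf1, a transcription factor that drives several genes of this list under interferon, differed by −0.07 and −0.10 (adjusted p = 0.461 and 0.235). Around Psmb8 and Psmb9 on chromosome 20 the neighbour medians were 0.04 in hIAPP and 0.14 in rIAPP.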

How the data were processed

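RNA of 3 INS1E clones (hIAPP, rIAPP, control), 2 arrays each, was measured on 1-colour Affymetrix rat arrays. The authors deposited log2 values at gene level (36685 transcript clusters) and exon level (220231 probe sets). They were made with Affymetrix Expression Console and RMA, per the submitters' processing notes, which give no versions. Values were used as deposited. RMA sets all arrays to the same distribution, so a shift common to most genes is not visible. Rows with exactly 1 symbol were kept, the brightest per symbol, which left 18166 genes. A transcript cluster that shares sequence with a near-identical gene copy can carry its signal too.

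Group means were fitted with limma 3.58.1 (R 4.3.3) to all 6 arrays (3 residual and 4.39 prior degrees of freedom). The call threshold was an adjusted p of 0.05 (Benjamini-Hochberg, over all genes). The number of arrays limits the precision. The script was tested on simulated data, and the outcome is not reported here, so it gives no measure of how reliable the calls are. Same-lettered arrays of different clones did not deviate together (correlations −0.0408 to 0.000643), so the letters were not used as a block. All members were accounted for by place in the complex, and every called member was named with its arrays. The members and gene lists were chosen with earlier results of these data known. No build is named for the array. Gene order and promoters are those of GRCr8. Alternatives covered the variance prior, filters, scaling, gene summary, neighbours, the row per symbol and single arrays.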

Additional observations from a re-analysis of the deposited data

Results flagged for a closer look

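Psmg4 was singled out because its response differed between the clones in a direct test: hIAPP minus rIAPP was 0.30 (limma adjusted p = 0.0155). Against control it was 0.21 in hIAPP and −0.08 in rIAPP. The 51 neighbouring genes had a median of 0.32 in hIAPP minus rIAPP, and the part of position in the difference was not tested.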

How the results depend on the processing

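The 15 alternatives moved the counts of called genes, of 40, more than the values. In hIAPP minus control the 4 calls became 6 with an intensity trend in the prior, where 23.8% of all genes were called. Over the brighter genes alone, to which 39 of the 40 belong, they became 6, where 40.7% of those genes were called. Psmc4 and Psmd14 were added in both settings. The 4 calls became 2 with arrays centred on their medians (Psmd7 and Psme2), where 19.3% of all genes were called. They became 1 with the letter as a replicate block (Psme2) and 1, Psmc2 lower, after centring on neighbours. In these settings 17.2% and 19% of all genes were called. The 4 calls became 0 with all transcript clusters fitted (7.02% of clusters called), with exon-level medians (7.75%) and with the 2 clones fitted alone (15.8%). In rIAPP minus control the 1 call became 9 with the trend and 9 over the brighter genes. Calls there covered 22% of all genes and 38.9% of the brighter ones. The 1 call became 0 with all clusters (4.52% called), exon-level medians (5.52%) or neighbour centring (15.7%). It stayed 1 under the replicate block (14.1%). In hIAPP minus rIAPP the 1 call became 3 with the trend (Psmc2, Psmd13 lower and Psmg4) and 2 over the brighter genes. Calls there covered 16.6% of all genes and 29.4% of the brighter ones. The 1 call became 0 with all clusters (3.43% called), exon-level medians (3.08%) or neighbour centring (9.67%). It stayed 1 under the block (9.92%). Leaving out 1 array leaves a single array in 1 clone, so counts of calls are not compared for these fits. Most calls ended in them, as described above for each gene. Differences from control in hIAPP ran from 0.15 to 0.22 for Psmc2, 0.16 to 0.23 for Psmd7, 0.16 to 0.25 for Psme2 and 0.17 to 0.26 for Psmg4. Psme2 ran from 0.23 to 0.24 in rIAPP minus control, and Psmg4 from 0.25 to 0.34 in hIAPP minus rIAPP. Centring on neighbours reversed Psmc2 (−0.18) and Psmg4 (−0.064 against control, −0.021 against rIAPP), since neighbour medians were as large as the genes' differences. Fitting all clusters or the brighter genes alone changes the genes tested and the spread prior, and the trend changes that prior. Leaving out arrays removes samples, as does fitting 2 clones alone. For the other settings the cause was not tested. Adjusted p of Psme2 ran from 0.000856 to 0.122 in hIAPP and from 0.000345 to 0.108 in rIAPP, and its difference stayed positive throughout. Psmb8 and Psmb9 were called against control in both clones under all 15. With 2 arrays a clone, differences near 0.2 sit at the threshold.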
